A study of Mus musculus with 6 samples.

Results

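Txnip, its alpha-arrestin relatives and the MondoA transcription factor network were followed in Neuro2a cells, a mouse neuroblastoma line, grown with or without D-serine. The 8 genes were picked by symbol from the 24391 genes of the count table: the alpha-arrestins Txnip, Arrdc1, Arrdc2, Arrdc3 and Arrdc4, and the basic helix-loop-helix zipper factors Mlxip (MondoA), Mlxipl (ChREBP) and Mlx. They were proposed with results of this comparison already known, so their differences are given as a description. The 3 control libraries came from cells given vehicle and the 3 D-serine libraries from cells given 5 mM D-serine, the enantiomer of L-serine, which activates NMDA receptors jointly with glutamate. For the 18 h before harvest all cultures were in a medium labelled D-MEM(-SG) with 10% FBS, and nothing in the labels says what was changed in that medium. Poly(A) RNA was sequenced as stranded paired-end libraries. The labels do not say whether the libraries of a group came from separate cultures, so errors and p-values measure the spread between these libraries.

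Alpha-arrestins are cytosolic adaptor proteins that recruit ubiquitin ligases of the NEDD4 family to membrane proteins, which are then internalised. TXNIP is the best known of them: it binds thioredoxin, restrains glucose uptake by drawing glucose transporters from the cell surface, and is turned over quickly. Its gene is a main target of MondoA, which pairs with MLX, is held at mitochondria, and enters the nucleus when glucose 6-phosphate accumulates. The pair binds carbohydrate response elements, which consist of a pair of E-box-like sequences with a short spacer, and Arrdc4 is the other classical target. Shortage of amino acids and changes in respiration are also known to alter Txnip expression in cultured cells.

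Arrdc3 and Txnip rose with D-serine, by 1.38-fold and 1.33-fold, and both were abundant transcripts. The other tested alpha-arrestins, Arrdc1 and Arrdc2, had fold values of 1.03. Mlxip had a fold value of 0.881 and Mlx one of 1.09, and neither passed the threshold. Arrdc4 and Mlxipl were at or near 0 in every library. In the edgeR quasi-likelihood fit over all 13366 genes with enough counts, 2 of the 6 tested members passed an adjusted p of 0.05, where 9.74% of all tested genes did. Both were higher, beside 4.84% of all genes called higher, and 0 were lower, beside 4.9%. Because the members were proposed from this comparison, nothing is read from these shares.

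The promoters of 4 members are shown because they set the pair that rose, Txnip and Arrdc3, beside Arrdc4, the classical Txnip partner that was not detected, and Mlx, the shared dimerisation partner. Each window runs from 250 bases before the transcription start to 50 bases after it, 5′ to 3′ on the gene's strand, from RefSeq on GRCm38.p6. Capitals mark matches to the E-box CACGTG, to a paired E-box-like motif (CACGNG, any 5 bases, CACGNG; the free positions stay in lower case), to CCAAT, to the forkhead motif GTAAACA, and to TATAA. All were searched on both strands except TATAA, which was searched on the gene's strand. A paired match may contain an E-box.
Txnip, chr3:96557707-96558006, plus strand: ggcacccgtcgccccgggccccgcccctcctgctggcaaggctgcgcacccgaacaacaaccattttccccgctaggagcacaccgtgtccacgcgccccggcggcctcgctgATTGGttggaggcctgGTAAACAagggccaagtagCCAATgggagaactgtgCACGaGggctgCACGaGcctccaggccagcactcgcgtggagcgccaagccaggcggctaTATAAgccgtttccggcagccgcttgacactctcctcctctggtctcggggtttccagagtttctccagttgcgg
Arrdc3, chr13:80883134-80883433, plus strand: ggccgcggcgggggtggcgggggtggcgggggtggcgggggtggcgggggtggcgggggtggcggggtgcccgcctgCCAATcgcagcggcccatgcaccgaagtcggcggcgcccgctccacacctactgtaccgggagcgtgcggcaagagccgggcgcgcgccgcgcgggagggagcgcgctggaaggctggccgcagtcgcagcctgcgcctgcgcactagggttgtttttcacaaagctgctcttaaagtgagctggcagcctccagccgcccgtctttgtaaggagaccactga
Arrdc4, chr7:68749189-68749488, minus strand: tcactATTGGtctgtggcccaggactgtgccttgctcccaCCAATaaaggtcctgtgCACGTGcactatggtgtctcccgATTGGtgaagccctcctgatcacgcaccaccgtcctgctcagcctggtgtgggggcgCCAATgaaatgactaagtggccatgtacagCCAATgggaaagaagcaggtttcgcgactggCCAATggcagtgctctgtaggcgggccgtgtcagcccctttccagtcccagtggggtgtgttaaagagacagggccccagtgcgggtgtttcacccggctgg
Mlx, chr11:101087040-101087339, plus strand: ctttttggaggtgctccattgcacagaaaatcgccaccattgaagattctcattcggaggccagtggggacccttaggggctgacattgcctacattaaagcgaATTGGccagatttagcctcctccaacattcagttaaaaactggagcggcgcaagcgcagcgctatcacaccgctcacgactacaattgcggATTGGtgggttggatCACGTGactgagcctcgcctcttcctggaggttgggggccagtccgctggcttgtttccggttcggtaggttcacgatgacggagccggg

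The Txnip window held the paired motif at 85 to 69 bases before the start. Only 0.0487% of the 32851 RefSeq promoter windows of the same length held it, that is 16 windows, and no other member's window did. The same window held a forkhead match (3.65% of all windows), 2 CCAAT matches (37.4%) and 1 TATAA match (17.5%) at 25 bases before the start. The Arrdc3 window shown had 1 CCAAT match and none of the other motifs. Of 2 further windows listed for Arrdc3, 1 overlapped the window shown and held the same CCAAT match, and the other held none. An exact E-box, present in 7.15% of all windows, lay in the windows of Arrdc4, Mlx and Mlxipl. The Arrdc4 window also held 6 CCAAT matches, while that of Arrdc1 held none of the motifs. Windows of the members were rich in G and C, from 55% in Mlx to 73.0% in Arrdc3, against a median of 52.7% over all windows. These matches describe the letters in the windows only. No binding was measured.

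**Figure D1:**
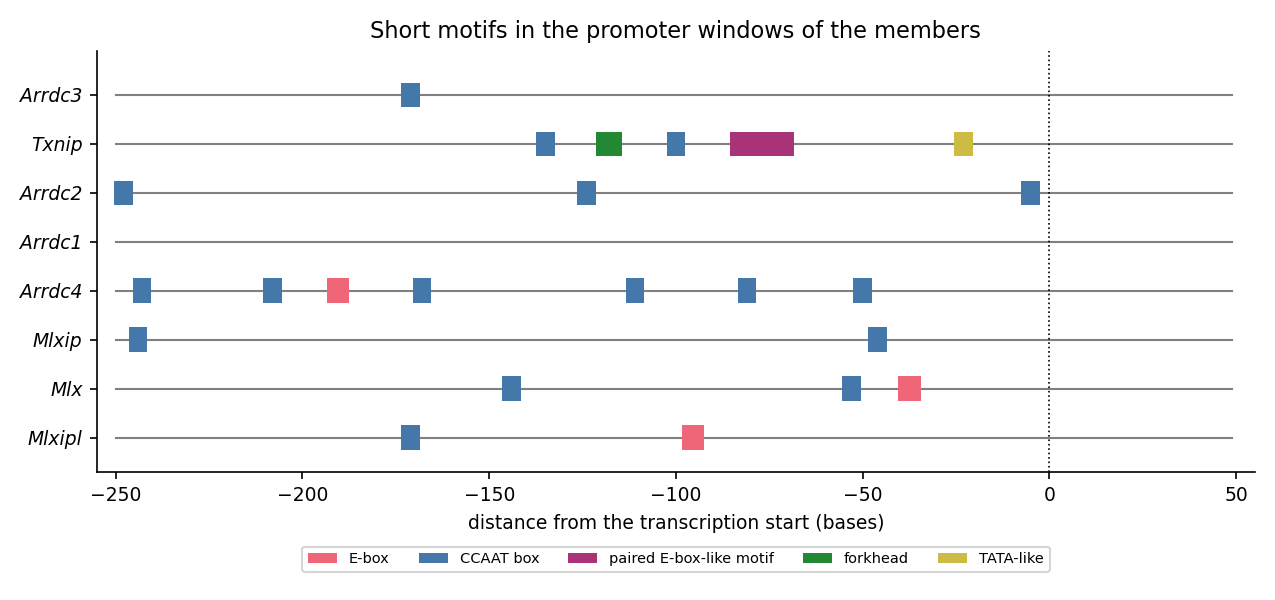
Short motifs in the promoter windows of the 8 members, by distance from the transcription start in bases (dotted line at 0). Boxes are motif matches, coloured by motif. Txnip is the member with a match to the paired E-box-like motif as searched, and Arrdc4 the one with the most CCAAT matches, 6. For Arrdc3 and Mlxipl 1 of several listed windows is drawn.

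Facts of the whole series were as follows. Total counts per library lay between 32518483 and 40024265 and gave a two-sided exact permutation p of 0.4 between the groups (3 against 3 cannot go below 0.1). D-serine replicate 1 stood apart from the other D-serine libraries, with a chi-square per degree of freedom of 13.9 and 17.7 against them, where the other pairs within a group had 3.88 to 6.54. The slope of its log2 deviation on log2 gene length was -0.072, against -0.0040 to 0.036 in the other libraries. Differences of the members are therefore also given without that library. Of 12 sympathoadrenal neuroblastoma markers, 10 exceeded 1 TPM in every library, among them Hand2 and Tubb3, while Nefl and Nefm were at or near 0. Their summed level was 1373 to 1417 TPM in control and 1527 to 1567 TPM with D-serine. Tubb3 alone made up 651 to 697 TPM of it in control and 769 to 824 TPM with D-serine, while the other 11 markers summed to 719 to 736 and 743 to 768 TPM. The part of these markers in the results below was not tested. Marker sets of fibroblasts, astrocytes, leukocytes, endothelium and epithelium summed to at most 3.28 TPM each, with Col3a1, Lum, Aqp4, Cd3e and Kdr at 0.

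Levels below are in CPM, counts relative to the library size after the trimmed-mean (TMM) scaling of edgeR. Values with ± are the mean and SD of the 3 libraries of a group (n = 3). Genes are compared with one another in TPM, which also divides by exonic length. In these bulk libraries more RNA per cell and more cells expressing a gene cannot be told apart.

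**Figure D2:**
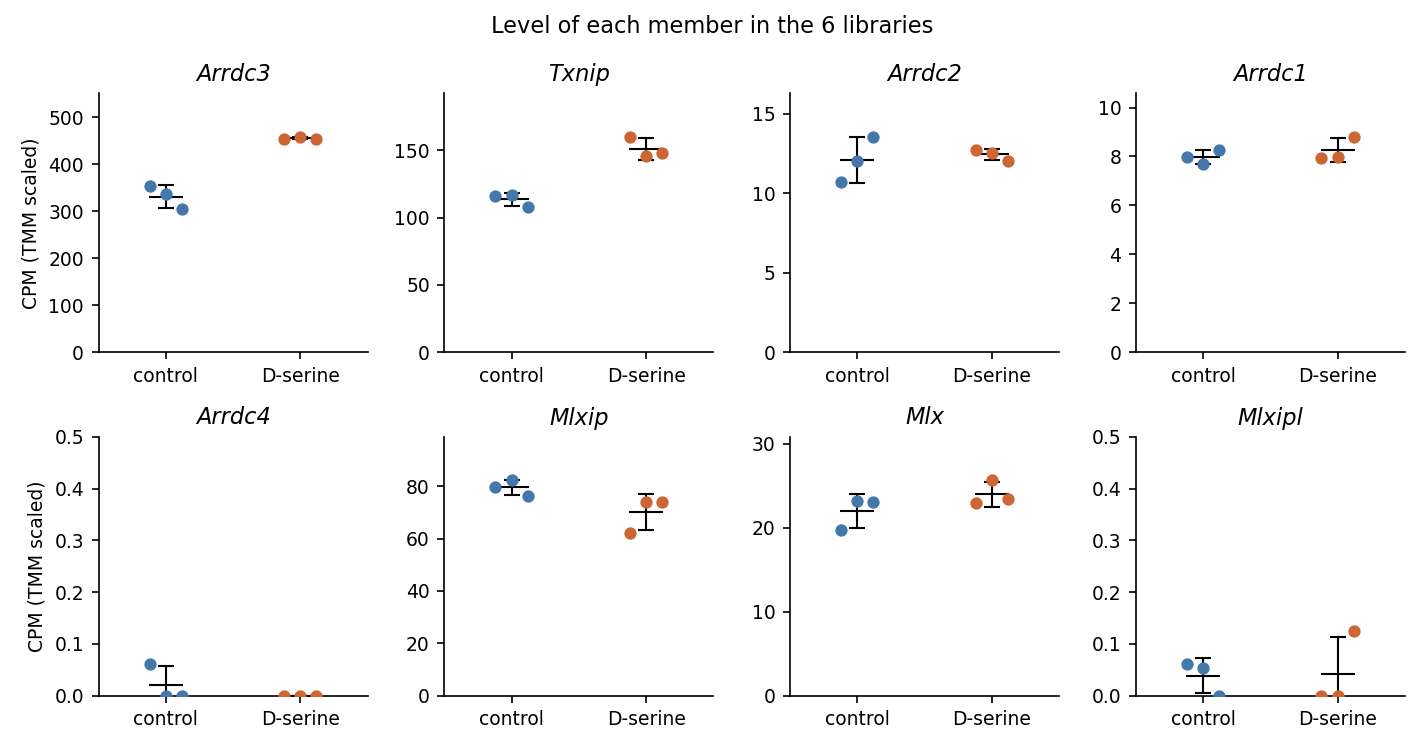
Level of each member in CPM (TMM scaled) in the 3 control and 3 D-serine libraries. Points are libraries, and the bar and whiskers are the mean and SD, n = 3 each. The D-serine libraries lie above every control library for Arrdc3 and Txnip and below them for Mlxip, and the scale of Arrdc4 and Mlxipl ends at 0.5 CPM.

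The transcription factors come first. Mlxip encodes MondoA, the glucose 6-phosphate responsive partner of MLX in most cell types. Its level was 79.9, 82.3 and 76.4 CPM in control replicates 1 to 3 and 62.2, 74.0 and 74.1 CPM in D-serine replicates 1 to 3. Every D-serine library was below every control library, and D-serine replicate 1 was the lowest. The log2 fold change was -0.18 (SE 0.066, 95% interval -0.32 to -0.040), which did not pass the adjusted threshold. Mlxip is the longest member, with 8074 exonic bases, and with the length trend of each library removed the difference was -0.073. Without D-serine replicate 1 it was -0.10.

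Mlx encodes the obligate partner of both Mondo proteins. It was at 19.7, 23.2 and 23.1 CPM in control and at 22.9, 25.7 and 23.4 CPM with D-serine. The groups overlapped, and control replicate 1 was the lowest library. The log2 fold change was 0.12 (SE 0.080, 95% interval -0.050 to 0.29), an interval that reaches from a small fall to a rise of 1.23-fold. It ranged from 0.051 without control replicate 1 to 0.16 without control replicate 2, was 0.072 without D-serine replicate 2, and was 0.15 without D-serine replicate 1. Mlx shares 67 of its 1975 exonic bases with Psmc3ip on the opposite strand. Psmc3ip itself was higher with D-serine (log2 fold change 0.44, SE 0.081, edgeR adjusted p = 0.0112), a call lost without control replicate 1 or 2 (adjusted p up to 0.0577). Whether counting used the strand is not given in the sources used here, so reads of the shared bases cannot be assigned.

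Per length, Mlx and Mlxip were close to each other in control, at 26.4 ± 2.13 and 23.4 ± 1.12 TPM, and stood at 28.5 ± 2.44 and 20.4 ± 2.48 TPM with D-serine. The ratio of Mlx to Mlxip in TPM was 1.01, 1.15 and 1.24 in the control libraries and 1.51, 1.42 and 1.29 in the D-serine libraries. These ratios did not overlap between the groups, but the highest control value, 1.24, was close to the lowest D-serine value, 1.29. Of all tested genes, 32.9% had levels of the single gene that did not overlap, and no such share was computed for ratios of genes. The ratio was highest in D-serine replicate 1. With the length trend removed the log2 fold changes were 0.092 for Mlx and -0.073 for Mlxip, against 0.12 and -0.18 in the reported fit. The ratio itself was not tested.

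Mlxipl encodes ChREBP, the Mondo protein of liver and fat. It had 2, 2 and 0 counts in the control libraries and 0, 0 and 5 in the D-serine libraries. The limit that a count of 0 allows, 3 counts, is 0.0750 to 0.0923 CPM in these libraries, so Mlxipl was at most barely detected and was not tested. MondoA was thus the Mondo protein whose transcript could be followed in this table. A count near 0 here does not by itself separate a silent gene from one whose reads were not counted. As counted, Mlxip and Mlx made up all but 0.161% or less of the summed TPM of the 3 genes in every library.

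Txnip was at 116, 117 and 108 CPM in the control libraries and at 160.3, 146 and 148 CPM in the D-serine libraries. All D-serine libraries lay above all control libraries, and D-serine replicate 1 was the highest. The mean went from 114 ± 4.88 to 151 ± 7.95 CPM, a log2 fold change of 0.41 (SE 0.051, 95% interval 0.30 to 0.52). In raw counts these levels rest on 12099 in control and 17592 with D-serine. Without D-serine replicate 1 the difference was 0.37. Txnip (chromosome 3, 96361880 to 96365780, plus strand, 8 exons, coordinates as deposited) shares 606 of its 2801 exonic bases with the noncoding gene Gm15441 on the opposite strand. As for Mlx, the strand setting of the counting is not given, so reads of the shared bases cannot be assigned. Their part in the level of Txnip, also per length, was not tested. Gm15441 had 7, 14 and 9 counts in control and 22, 22 and 12 with D-serine, and the groups overlapped. It was named for its overlap, after its values were seen, and its log2 fold change was 0.78 (SE 0.46, edgeR adjusted p = 0.286).

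Arrdc4 is the alpha-arrestin that is usually induced together with Txnip by MondoA. It had 2 counts in control replicate 1 and 0 counts in each of the other 5 libraries. Over the 3 control libraries those 2 counts have an exact Poisson interval of 0.242 to 7.22 counts, which covers counting error only. No fold is given, since both groups are at or under the limit that a count of 0 allows. Arrdc4 has 3955 exonic bases and shares none with another gene of the table. A count near 0 in this table does not by itself separate a silent gene from one whose reads were not counted: Dscr3, a sorting protein gene with an arrestin fold, was also listed at 0 in all 6 libraries.

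Arrdc3 encodes an alpha-arrestin that acts on the beta-adrenergic receptor and on integrins and has been linked to energy expenditure and tumour suppression. It was the most strongly expressed member, at 353, 336 and 304 CPM in control and 454, 458 and 453 CPM with D-serine. The D-serine libraries differed little among themselves and were all above the highest control library. The mean went from 331 ± 24.7 to 455 ± 2.79 CPM, a log2 fold change of 0.46 (SE 0.051, 95% interval 0.35 to 0.57). Without D-serine replicate 1 it was 0.46. The counts behind these means were 35136 and 52922. Arrdc3 (chromosome 13, 81022683 to 81035303, plus strand, 8 exons, coordinates as deposited) shares no exonic base with another gene.

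Arrdc1 encodes the alpha-arrestin that drives budding of small vesicles from the plasma membrane. Its level was 7.995, 7.68 and 8.25 CPM in control and 7.95, 7.97 and 8.81 CPM with D-serine. The groups overlapped, and the log2 fold change was 0.049 (SE 0.10, 95% interval -0.17 to 0.26). Arrdc2, a less studied relative, was at 10.7, 12.02 and 13.6 CPM in control and 12.7, 12.6 and 12.1 CPM with D-serine. Its D-serine libraries lay within the control range, and the log2 fold change was 0.040 (SE 0.096, 95% interval -0.17 to 0.25). The upper bounds of the 2 intervals correspond to 1.201-fold and 1.19-fold, below the 1.33-fold value of Txnip. Without D-serine replicate 1 the log2 fold changes were 0.074 and 0.023.

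Of the 6 tested members, 3 had libraries that did not overlap between the groups, Arrdc3 and Txnip upwards and Mlxip downwards. Over all tested genes, 32.9% did not overlap, 16.2% upwards and 16.6% downwards. The rise of Arrdc3 was the second and that of Txnip the third in size among the 2736 genes with a mean of at least 100 CPM, a level chosen after the values were seen. The gene before them was Stmn4, a stathmin of neurons (log2 fold change 0.49, SE 0.054). Over all 13366 tested genes, at any level, Arrdc3 stood at place 670 and Txnip at place 822 by log2 fold change. Called genes, 1302 in all, had a median absolute log2 fold change of 0.26.

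**Figure D3:**
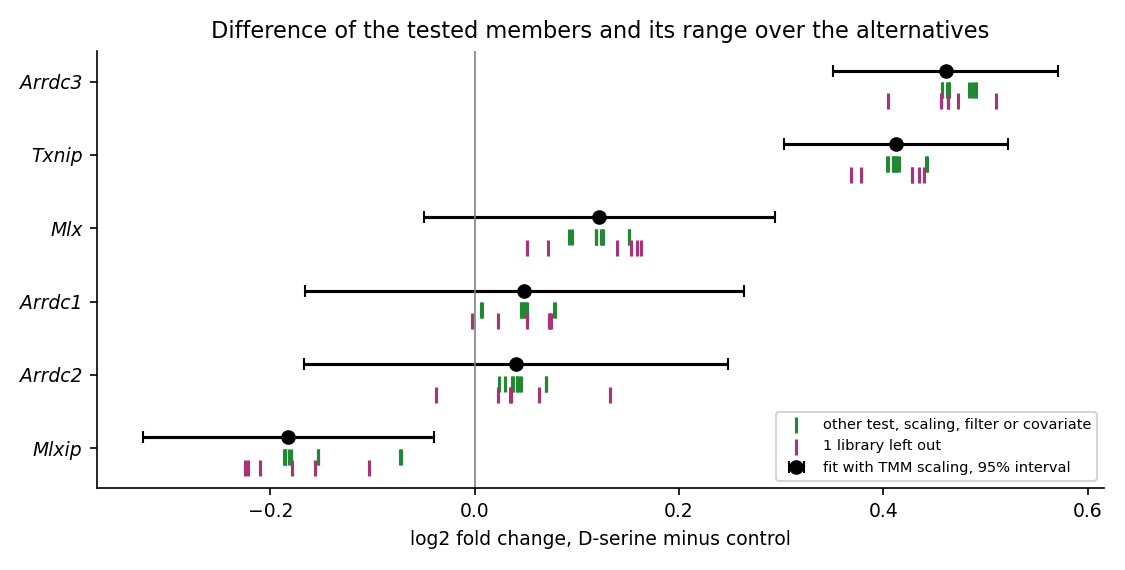
Log2 fold change of the 6 tested members, D-serine minus control. Black points and bars are the edgeR fit with its 95% interval, green ticks are fits with another test, scaling, filter or covariate, and purple ticks are fits with 1 library left out. All ticks of Arrdc3 (0.40 to 0.51) and Txnip (0.37 to 0.44) lie to the right of 0, while those of Arrdc1 and Arrdc2 reach both sides.

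Measured per length, the alpha-arrestin pool was made up mainly of Arrdc3 and Txnip. The summed level of the 5 genes was 329, 317 and 288 TPM in the control libraries and 405, 417 and 410.3 TPM in the D-serine libraries. Arrdc3 held 61.6% ± 1.41 of it in control and 63.5% ± 1.11 with D-serine. Txnip held 31.0% ± 0.60 and 30.8% ± 1.19. The ratio of Arrdc3 to Txnip in TPM ranged from 1.93 to 2.08 in control and from 1.94 to 2.16 with D-serine, so these ranges overlapped. Arrdc1 made up 3.44% ± 0.29 in control and 2.66% ± 0.18 with D-serine, and Arrdc2 3.96% ± 0.68 and 3.03% ± 0.063. Shares of 1 sum depend on one another, and the levels of these 2 genes did not fall. Arrdc1 was at 10.7 TPM in control and 10.9 TPM with D-serine, and Arrdc2 at 12.2 and 12.5 TPM. In all, the order by mean TPM was Arrdc3 (227), Txnip (111), Mlx (27.5), Mlxip (21.9), Arrdc2 (12.3) and Arrdc1 (10.8), with Mlxipl and Arrdc4 below 0.1. The ranges of neighbours over the 6 libraries overlapped for Mlx and Mlxip, for Arrdc2 and Arrdc1, and for Mlxipl and Arrdc4, and were separate for the other neighbours.

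**Figure D4:**
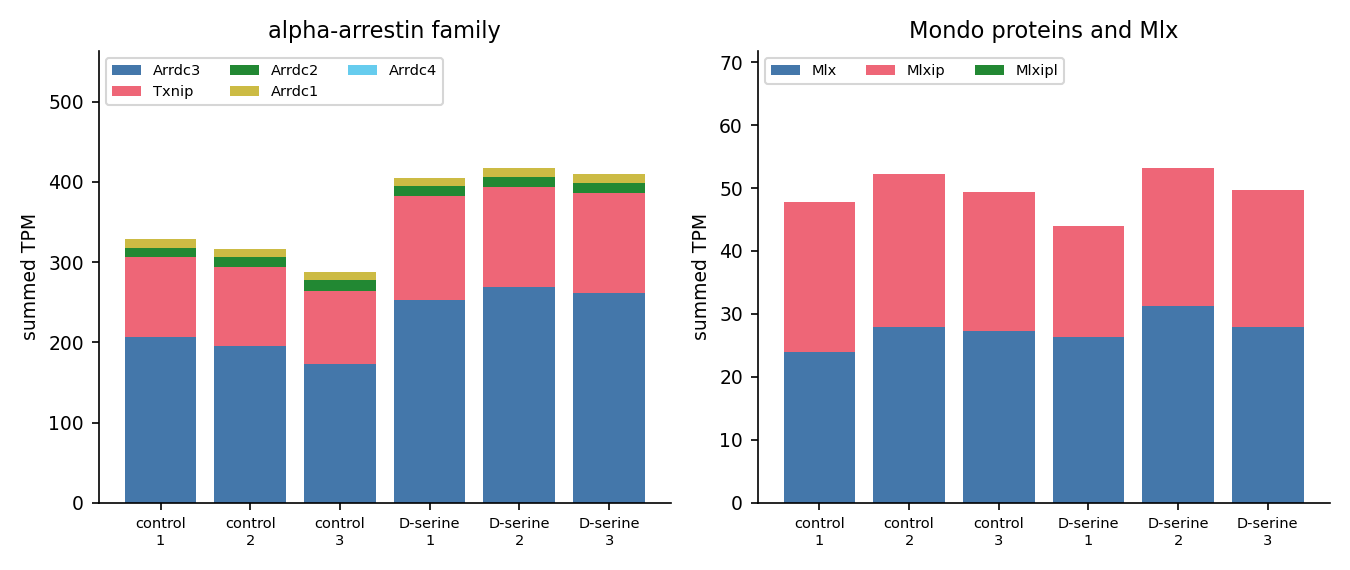
Summed TPM of the alpha-arrestins (left) and of Mlx and the Mondo proteins (right) in each library, with each gene as a coloured part of the bar. The alpha-arrestin sum is 288 to 329 TPM in control and 405 to 417 TPM with D-serine, while the sum of Mlx and the Mondo proteins overlaps between the groups. Arrdc4 and Mlxipl are too low to be seen.

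The genes around the members were taken from 8 lists written from general knowledge, with members left out and with earlier results of these data known. Of their 105 genes in the table, 91 were tested, and 12 passed an adjusted p of 0.05 in edgeR, 8 higher and 4 lower. That is 13.2% of those tested, beside 9.74% of all genes, and the median log2 fold change was -0.0074 beside 0.0053. Counts of single lists below stand beside the same 9.74%, and no enrichment is read from any of these shares. Without control replicate 2 the count was 0, without control replicate 1 or 3 it was 1 each, without D-serine replicate 3 it was 2, and without D-serine replicate 1 it was 17.

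Described targets of MondoA and ChREBP other than the members did not share 1 direction. Of 24 genes, 20 were tested and 3 passed, 15% beside 9.74% of all tested genes (median log2 fold change 0.0015). Bhlhe40 and Bhlhe41, repressors of the clock and of metabolic genes, were higher, at 54.1 ± 0.85 against 60.9 ± 1.39 CPM (log2 fold change 0.17, SE 0.049, adjusted p = 0.0449 in edgeR) and 19.0 ± 0.60 against 22.4 ± 0.96 CPM (0.24, SE 0.069, adjusted p = 0.0442). Bhlhe40 shares 118 exonic bases with 0610040F04Rik on the opposite strand. Gpd1, the glycerol 3-phosphate dehydrogenase of the cytosol, was lower (log2 fold change -0.41, SE 0.12, adjusted p = 0.0442). The most abundant genes of the list were the lipogenic enzymes Acly (0.037, adjusted p = 0.637) and Fasn (-0.088, adjusted p = 0.382). Each of the 3 calls was lost in at least 4 of the 6 fits that left out 1 library, with highest adjusted p-values of 0.154 for Bhlhe40, 0.161 for Bhlhe41 and 0.181 for Gpd1. That of Gpd1 was also lost under upper quartile scaling and library totals.

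Transporters and enzymes that set glucose 6-phosphate, the signal MondoA responds to, gave 1 called gene of 12 tested (median log2 fold change -0.083). That is 8.33%, beside 9.74% of all tested genes. The called gene was Hk1, the main hexokinase of neurons, which went from 260 ± 1.92 to 235 ± 3.45 CPM (log2 fold change -0.15, SE 0.039, edgeR adjusted p = 0.0357). The call was lost under upper quartile scaling, under library totals and in 4 of the 6 fits without 1 library. Gpi1, which converts glucose 6-phosphate into fructose 6-phosphate, had a log2 fold change of -0.076 (adjusted p = 0.269).

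In the thioredoxin system and among described partners of TXNIP, 0 of 12 tested genes passed in edgeR, and 4 had an unadjusted p under 0.05. The median log2 fold change of the 12 was -0.028. Libraries did not overlap between the groups for 5 of them downwards and 0 upwards, beside 16.6% and 16.2% of all tested genes. DESeq2 called 1 gene and limma-voom 0. The most abundant were Ddit4, an inhibitor of the kinase mTOR described to act with TXNIP (log2 fold change 0.11, edgeR adjusted p = 0.149), and Txnrd1, the cytosolic thioredoxin reductase (-0.043, adjusted p = 0.488).

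The MAX and MXD network, whose proteins belong to the same zipper family as MLX, had 3 called genes of 10 (median log2 fold change 0.0055). That is 30%, beside 9.74% of all tested genes, and leaving out 1 library gave 0 to 3 calls. Mnt, a repressor that pairs with MAX or MLX, was lower, at 87.4 ± 1.38 against 75.0 ± 1.95 CPM (log2 fold change -0.22, SE 0.046, edgeR adjusted p = 0.0149). Myc was higher, at 341 ± 2.18 against 404 ± 13.4 CPM (0.25, SE 0.041, adjusted p = 0.00775), as was Mycn, the MYC protein of neuroblastoma (0.15, SE 0.044, adjusted p = 0.0475). Mga, the other abundant gene of the list, had a log2 fold change of -0.081 (adjusted p = 0.585). Leaving out 1 library ended the call of Myc without control replicate 2 (adjusted p = 0.0548), that of Mnt without any 1 control library (up to 0.0718) and that of Mycn in 4 of 6 fits (up to 0.160). Mycn was also lost with DESeq2-style size factors (adjusted p = 0.051).

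On the side of alpha-arrestin action, the NEDD4 family ligases and their adaptors had 2 called genes of 9 tested. That is 22.2%, beside 9.74% of all tested genes. Smurf1, a ligase of this family, was lower, at 167 ± 3.19 against 145 ± 7.48 CPM (log2 fold change -0.20, SE 0.047, edgeR adjusted p = 0.0232). Ndfip1, a membrane adaptor that activates these ligases, was higher, at 55.9 ± 0.95 against 64.0 ± 2.03 CPM (0.19, SE 0.050, adjusted p = 0.0299). The most abundant ligase, Nedd4, had a log2 fold change of -0.011 (95% interval -0.11 to 0.085). Of the 14 genes listed for the ESCRT machinery, parts of which serve vesicle budding by ARRDC1, Vps28 alone was called (0.23, SE 0.060, adjusted p = 0.0344). That is 7.14%, beside 9.74% of all tested genes. The abundant Stam (-0.11, adjusted p = 0.117) and Pdcd6ip (-0.065, adjusted p = 0.340) were not called. Smurf1, Ndfip1 and Vps28 each lost the call in 4 of the 6 fits without 1 library, with adjusted p-values up to 0.113, 0.121 and 0.128. Ndfip1 and Vps28 lost it with the length trend removed as well (log2 fold changes 0.11 and 0.14).

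Other proteins with an arrestin fold gave 0 called genes of 6 tested in edgeR, with 1 at an unadjusted p under 0.05 and 0 in DESeq2 or limma-voom. The retromer subunits Vps26a (log2 fold change 0.14, edgeR adjusted p = 0.0885) and Vps26b (-0.029, adjusted p = 0.746) were the most abundant of them. Vps26a passed when libraries were scaled by their totals (adjusted p = 0.0462) or upper quartiles (0.0483) and with the length trend removed (0.0294).

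Of transcription factors described at the Txnip promoter, 2 of 9 tested were called, both higher. That is 22.2%, beside 9.74% of all tested genes called and 4.84% called higher. Nfya, the subunit of the CCAAT-binding factor that contacts DNA together with Nfyb and Nfyc, went from 141 ± 3.20 to 157 ± 5.43 CPM (log2 fold change 0.15, SE 0.044, edgeR adjusted p = 0.0449). Nfyb had a log2 fold change of 0.029 (adjusted p = 0.679) and Klf6 one of 0.092 (adjusted p = 0.209). Klf6 passed the threshold with the length trend removed (adjusted p = 0.0284) and without D-serine replicate 1 (log2 fold change 0.13, adjusted p = 0.0240). Ppargc1a, a coactivator of mitochondrial genes, had 4, 8 and 6 counts in control and 18, 22 and 22 with D-serine (log2 fold change 1.64, SE 0.45, adjusted p = 0.0388). Its groups did not overlap, but it was not called in any of the 6 fits without 1 library (adjusted p up to 0.140), nor without the filter on low counts. The call of Nfya was lost in 5 of these 6 fits (up to 0.168).

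**Figure D5:**
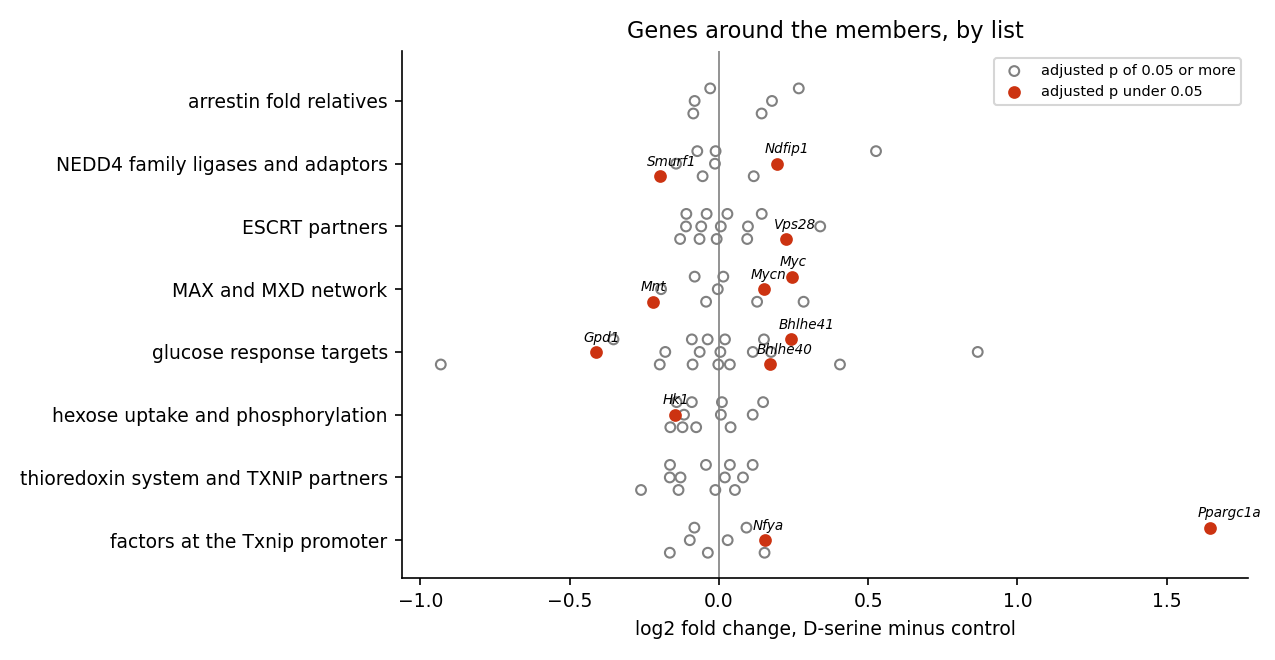
Log2 fold change, D-serine minus control, of the tested genes in the 8 lists, 1 row of points per list, with a gene of several lists shown in each. Filled points passed an adjusted p of 0.05 and carry their names. They lie on both sides of 0, 8 higher and 4 lower, and Ppargc1a, which rests on 4 to 22 counts per library, stands far to the right.

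The genes whose pattern over the 6 libraries was most like that of Txnip were sought among 9800 tested genes with a mean of at least 5 CPM, by Pearson's r of log2 CPM. They were Tm7sf3 (r = 0.998), Snrpd3 (0.997), Anapc4 (0.997), Sdr39u1 (0.997) and Snx17 (0.995). Since Txnip separates the groups, any gene that does so scores high over 6 points that also share library depth and composition. With group means removed the 5 values were 0.981, 0.968, 0.955, 0.951 and 0.924. The 5 genes were picked by r over the same 6 libraries, so these values are not a separate check. All 5 were called higher, with log2 fold changes of 0.17 to 0.26. Each lost the call without any 1 control library, and all but Sdr39u1 lost it without D-serine replicate 3 as well (adjusted p up to 0.107). With the length trend removed Snrpd3 was at 0.079 (adjusted p = 0.119). Without D-serine replicate 1 only Tm7sf3 and Snrpd3 were still among the 5 most alike.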

How the data were processed

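Poly(A) RNA of 6 Neuro2a libraries was analysed, 3 control and 3 D-serine. The values deposited by the authors are raw counts in 1 table of genes, with exonic lengths, in featureCounts columns per the file headers. The submitters' processing notes name bcl2fastq, Trim Galore, HISAT2, featureCounts, Subread and DESeq2, and the builds GRCm38 and mm10. The deposited exon positions are not those of GRCm38: 313 of 23125 genes matched by symbol, and 0 of the 8 members, had the same start in RefSeq on GRCm38.p6. Gene positions are therefore given as deposited, and promoter windows on GRCm38.p6. Strand setting and handling of reads with several positions are not given in the sources used here. Columns that name vehicle were assigned to the control samples of the same number.

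Genes were kept by filterByExpr (13366 of 24391), scaled by TMM and tested with the quasi-likelihood F test of edgeR 4.0.16 in R 4.3.3 without covariates, with Benjamini-Hochberg adjustment over all genes tested and a threshold of 0.05. At an unadjusted p under 0.05 there were 3769 genes. The standard error is the log2 fold change divided by the square root of F. TPM was computed from counts and exonic lengths, and log2 CPM used a prior count of 2. Alternatives were DESeq2 1.42.0, limma-voom (limma 3.58.1), other scalings and filters, removal of the length trend in each library (natural spline with 5 degrees of freedom), a block for the replicate number, and leaving out each library. Named were all members, the called genes of each list (at most 4, by p) and the 2 most abundant genes of each list, and the 5 genes most like Txnip. The members and lists were chosen with earlier results of these data known. Of the marker genes, 2 are not reported here and enter no sum. No protein sequences were used here.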

Additional observations from a re-analysis of the deposited data

How the results depend on the processing

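Txnip and Arrdc3 were past the threshold in all 16 alternatives, with adjusted p-values up to 0.0179. Mlxip was past it without the filter on low counts (log2 fold change -0.18, adjusted p = 0.0436), where 3 members were called. With replicate number as a block, 298 genes passed (178 higher and 120 lower), among them 2 members and 1 gene of the lists (1 higher and 0 lower). Of the 5 genes most like Txnip 0 passed with it. The labels do not say whether equal numbers pair libraries. With group means removed, correlations of same-numbered libraries were -0.0687, 0.0197 and -0.0187, and not every library correlated best with its own number. With 3 libraries a group, of which D-serine replicate 1 stood apart, these values cannot decide whether the numbers pair. With the length trend removed, 2043 genes passed (1023 higher and 1020.0 lower) and 8 list genes were lower, or 7 with the block as well. With scaling to the upper quartile the calls were 914 up and 412 down, with library totals 944 and 412, and each left 2 list genes lower, against 647 and 655 in the reported fit. Without the filter 987 genes were lower. Leaving out 1 library gave 68 to 1699 genes, 47 to 783 higher, 21 to 916 lower, 0 to 17 list genes, 0 to 10 of them higher and 0 to 7 lower. Log2 fold changes of some uncalled genes changed sign: Arrdc1 (-0.0026 to 0.075 over the fits without 1 library), Arrdc2 (-0.038 to 0.13 likewise), Vps26b (0.00059 under upper quartile, 0.065 and 0.064 with the length trend removed without and with the block, -0.057 to 0.0029 without 1 library), Nedd4 (0.018 under upper quartile, 0.018 with totals, 0.052 and 0.051 with the length trend removed, -0.035 to 0.025 without 1 library), Pdcd6ip (0.010 and 0.0098 with the length trend removed), Mga (0.088 and 0.087 likewise, -0.16 to 0.043 without 1 library) and Fasn (0.046 and 0.046 likewise). Fits with fewer libraries or with a block have fewer degrees of freedom. Without D-serine replicate 1, 1699 genes passed, against 1302 in the reported fit. The cause of the changes in calls and in sign was not tested. The order of the members by level per length was the same in RPKM as in TPM. With 3 libraries a group, precision is limited by their spread, and for Arrdc4, Mlxipl and Ppargc1a by their counts.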

Other observations

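The paired E-box-like motif, in the same form only, was looked up in the promoter windows of all genes. Apart from Txnip it occurred in windows of 14 genes, of which 9 were tested and 1, Rbmxl1, was called in the edgeR fit (log2 fold change 0.18, SE 0.045, adjusted p = 0.0262). That call was lost without any 1 control library and without D-serine replicate 3 (adjusted p up to 0.124). The median log2 fold change of the 9 was 0.023. Of 1162 tested genes with an exact E-box in a window, members left out, 107 were called (9.21%, 56 higher and 51 lower), and of 305 with the forkhead motif 33 were called (10.8%, 17 higher and 16 lower), beside 9.74% of all tested genes.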
